A study of Mus musculus with 3 samples.

Results

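The cytosolic ribosomal protein genes of the E7.5 mouse embryo were taken as every gene whose symbol is Rpl or Rps followed by a number, with or without one of the suffix letters a, x, y and l, or is Rplp0, Rplp1 or Rplp2. The rule found 83 genes among the 17633 genes listed in the deposited tables, 32 of the small subunit and 51 of the large subunit. It uses symbols only and no measured value. Of the 83 genes, 82 had reads in all 3 libraries and 80 had an RPKM over 5 in at least 1 library. RPKM is the read count scaled to the length of the gene and to the counted reads of the library, so that genes of different length can be compared. The 3 genes under that level were *Rpl3l*, *Rpl10l* and *Rpl39l*. *Rpsa*, *Fau*, *Rack1* (listed as *Gnb2l1*) and *Rpl36al* also encode ribosomal or ribosome-associated proteins but do not match the symbol rule, and their values are given apart.

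The study profiled mRNA of the endoderm (End), mesoderm (Mes) and epiblast (Epi) separated from untreated ICR embryos at embryonic day 7.5, with 1 paired-end library per germ layer. RNA of each layer was pooled over many embryos, so a library is an average over a pool, and with 1 library per layer no difference has a replicate check. The libraries held 41.7 M (End), 40.8 M (Mes) and 42.7 M (Epi) reads counted on genes. Ratios between libraries are given with exact 95% binomial (Clopper-Pearson) intervals, which cover counting error only and compare these libraries rather than germ layers in general. The labels were checked with 5 marker genes per layer, and in each list 5 of 5 genes were highest in their own library, with *Foxf1* read under its older symbol *Foxf1a*. The summed RPKM of the endoderm markers was 1675 in the endoderm against 50.7 in the mesoderm and 3.93 in the epiblast. The mesoderm markers summed to 385 in the mesoderm, 6.76 in the endoderm and 81.4 in the epiblast, and the epiblast markers to 1310 in the epiblast, 157 in the endoderm and 197 in the mesoderm. Of markers of neighbouring tissues, the trophoblast genes *Tpbpa* and *Prl3d1*, the embryonic globin genes *Hba-x* and *Hbb-y* and the decidual gene *Prl8a2* had no read. The 6 trophoblast markers summed to 47.9, 34.3 and 52.5 RPKM in End, Mes and Epi, of which *Cdx2* gave 37.1 and *Eomes* 14.5 in the epiblast. The 5 erythroid markers summed to 3.39, 4.44 and 0.905. The 4 decidual markers summed to 0.673, 26.3 and 0.876, of which *Hand2* gave 26.2 in the mesoderm. The part of such cells in the values of the ribosomal protein genes was not tested.

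The ribosome is built from a small subunit, which reads the mRNA, and a large subunit, which joins amino acids. Each protein of the ribosome is present in about one copy per particle, apart from the P stalk proteins, and the genes are among the most highly transcribed genes of growing cells. Mammalian ribosomal protein mRNAs typically begin with a terminal oligopyrimidine tract (TOP), a cytosine followed by further pyrimidines, through which their translation follows growth signals. Most of these genes have processed pseudogenes, copies of the mRNA inserted elsewhere in the genome, which compete with the gene for reads.

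The start sites are shown because the tract is a sequence feature for which these genes are known. RefSeq start sites on the GRCm38.p6 assembly were available for 62 of the 83 genes. The 40 bases below run 5′ to 3′ on the strand of the gene, 30 before and 10 from the annotated start onward, and capitals mark a run of at least 5 pyrimidines that begins with C within 5 bases of the start. They show members whose levels are described below, 5 with a run and 3 without.
Rpl38 (chr11:114668550-114668589, plus strand): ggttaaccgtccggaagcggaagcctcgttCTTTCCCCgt
Rps27 (chr3:90213639-90213678, minus strand): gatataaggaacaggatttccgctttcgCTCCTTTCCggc
Rps6 (chr4:86857358-86857397, minus strand): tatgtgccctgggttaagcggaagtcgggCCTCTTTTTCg
Rplp2 (chr7:141447621-141447660, plus strand): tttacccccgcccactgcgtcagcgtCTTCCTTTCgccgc
Rps26 (chr10:128626497-128626536, minus strand): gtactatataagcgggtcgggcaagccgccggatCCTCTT
Rplp0 (chr5:115559437-115559476, plus strand): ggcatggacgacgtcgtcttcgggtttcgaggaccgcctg
Rps12 (chr10:23787200-23787239, minus strand): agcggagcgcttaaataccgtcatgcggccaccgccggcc
Rpl41 (chr10:128549159-128549198, minus strand): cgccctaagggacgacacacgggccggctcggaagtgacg

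Exactly at the annotated start, 13 of the 62 genes (21.0%) had such a run, against 3.01% of 27025 genes with a start site. Within 5 bases of it the counts were 29 of 62 (46.8%) against 21.2%. The 6 letters CTTTCC, which can lie inside the tract, were found on the strand of the gene in the 100 bases around the start in 19 members (30.6%) against 5.43% of all genes, and on the other strand (GGAAAG) in 2 members (3.23%) against 5.12%. Annotated starts can miss the start used by the cell by several bases, and no match says only that these letters are not in this window.

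The ribosomal protein genes took a large part of each library. They held 2614028 of the reads in the endoderm, 3218709 in the mesoderm and 3688908 in the epiblast. This was a share of 6.28% (exact 95% interval 6.27 to 6.28) in the endoderm, 7.88% (7.87 to 7.89) in the mesoderm and 8.64% (8.63 to 8.65) in the epiblast. The share was thus lowest in the endoderm and highest in the epiblast, and the intervals do not overlap. As a share of summed RPKM, which weighs genes by transcripts rather than by bases, the members held 17.5%, 21.3% and 22.7%. Without the 100 genes with the most reads in any library, many of them members, the shares were 2.60%, 3.09% and 3.57%, in the same order. In a pool of cells, fewer cells of a type and less RNA per cell cannot be told apart, and a lower share of ribosomal protein mRNA cannot be told apart from more of other mRNA.

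The median level of the 80 members over RPKM 5 was 956 RPKM in the endoderm, 1237 in the mesoderm and 1328 in the epiblast. Members made up 38 of the 65 genes over RPKM 1000 in the endoderm, 51 of 78 in the mesoderm and 58 of 88 in the epiblast. The ranking of the 80 members was almost the same in every library, with Spearman's rho of 0.99 for End and Mes, 0.98 for End and Epi and 0.98 for Mes and Epi, as a description over genes that have the same length and sequence in each library. Although the proteins are present in about equal numbers, levels spanned from 5.53 to 3946 RPKM in the endoderm, 7.89 to 4810 in the mesoderm and 7.15 to 4516 in the epiblast. Most genes lay close together, with the middle of the distribution (the quartiles) between 685 and 1295 RPKM in the endoderm, 832 and 1582 in the mesoderm and 934 and 1845 in the epiblast.

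**Figure D1:**
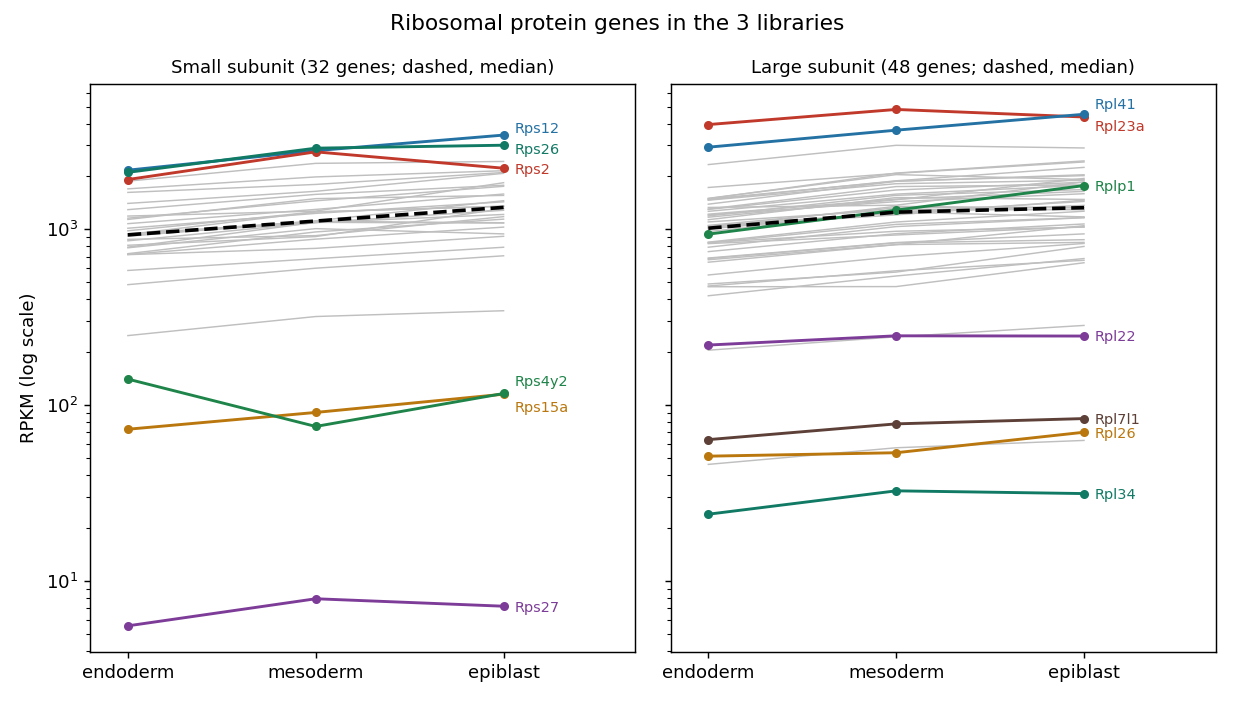
RPKM on a log axis of the 32 small subunit and 48 large subunit genes over RPKM 5 in the endoderm, mesoderm and epiblast libraries, 1 line per gene, with named genes in colour and the median dashed. Nearly all lines rise from the endoderm, *Rps4y2* falls from 140 to 75.5 and returns to 116, and a few genes such as *Rps27*, *Rpl34* and *Rpl26* lie far below the others.

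The 5 members with the highest mean level were *Rpl23a*, *Rpl41*, *Rps12*, *Rpl35* and *Rps26*. *Rpl23a*, a large subunit protein near the exit of the peptide tunnel, had 3946, 4810 and 4358 RPKM in End, Mes and Epi. *Rpl41*, which encodes a very short basic peptide of the large subunit, had 2933, 3666 and 4516 RPKM. *Rps12* of the small subunit had 2170, 2803 and 3438 RPKM. These genes differ in which library was highest, the mesoderm for *Rpl23a* and the epiblast for *Rpl41* and *Rps12*. *Rpl35* had 2335, 3007 and 2904 RPKM, and *Rps26*, a small subunit protein at the mRNA exit channel, 2110, 2896 and 3010.

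The 5 lowest of the 80 were *Rps27*, *Rpl34*, *Rpl22l1*, *Rpl26* and *Rpl7l1*. *Rps27*, a zinc finger protein of the small subunit, had 138, 193 and 183 reads in End, Mes and Epi, or 5.53, 7.89 and 7.15 RPKM. *Rpl34* had 23.9, 32.5 and 31.3 RPKM and *Rpl26*, which lies beside the peptide exit, 51.1, 53.5 and 70.0. Each of these shares sequence with a listed gene elsewhere, as described below. Over the 80 members the mean RPKM had a rho of 0.20 with the share of sequence found in any other gene. With the share found in a listed gene elsewhere the rho was -0.20. *Rpl23a*, with 85.7% shared with any other gene and 0% with a listed gene elsewhere, was the highest member. The low level of *Rps15a*, at 72.8, 90.7 and 115 RPKM, went with a deposited gene length of 5158 bases where the shortest principal transcript of the annotation gives a mean of 749 RPKM instead of 92.9. For *Rpl15*, *Rpl21*, *Rpl22* and *Rpl31* the deposited length was likewise over 2 times that of the shortest principal transcript. A level compared between genes depends on that length, whereas a ratio between libraries does not.

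Because only uniquely mapped reads were counted, sequence shared with other genes can remove reads from a member. Each member's transcript was cut into all windows of 50 bases, and 80 of the 83 members shared at least 1 window exactly with the transcript of another annotated gene, 47 of them over 50% of their windows (median over members 53.6%). The genome itself was not searched, so copies without an annotated transcript are missing from these shares. The shares are also not limited to genes at another locus. With pseudogenes only, that of *Rpl35* was 29.0% in place of 95.1%. For 9 of the 80 members over RPKM 5, a gene at another locus that shared at least 30% of the windows was itself listed in the tables. Their median of mean RPKM was 244, against 1227 for the other 71, and the ranges overlapped (6.86 to 2804 against 75.1 to 4371).

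In a pair of these the copy and not the member held the reads. For *Rpl26* on chromosome 11 the processed pseudogene *Gm15772* on chromosome 5, which shares 60.6% of the windows, was listed with 18730, 20866 and 28461 reads in End, Mes and Epi against 1201, 1232 and 1685 on *Rpl26* itself. In RPKM the copy had 834, 948 and 1236. For *Rpl34* on chromosome 3 the copy *Rpl34-ps1* on chromosome 6 was listed with 16121, 18458 and 22299 reads against 614, 818 and 825, or 782, 913 and 1055 RPKM. The levels of both copies lie within the range of the other ribosomal protein genes, and their order over the libraries was that of most members, lowest in the endoderm and highest in the epiblast. Whether a read came from the gene or its copy cannot be told from the deposited counts.

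*Rps27* differed from these. Its copy *Gm9846* on chromosome 9, which shares 63.1% of the windows, had 0, 1 and 0 reads, so that both were near the lowest levels while *Rps27l*, its close relative, had 248, 319 and 344 RPKM. *Rpl30* had 205, 244 and 284 RPKM and its copy *Gm12191* 25.2, 30.8 and 37.3. In the other 5 members with a listed copy (*Rpl22l1*, *Rpl29*, *Rplp2*, *Rps12*, *Rps23*) the copy was listed at a small part of the level of the member. *Rps12*, for example, had 2170 RPKM in the endoderm and its partner *Nphs1* 0.106.

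**Figure D2:**
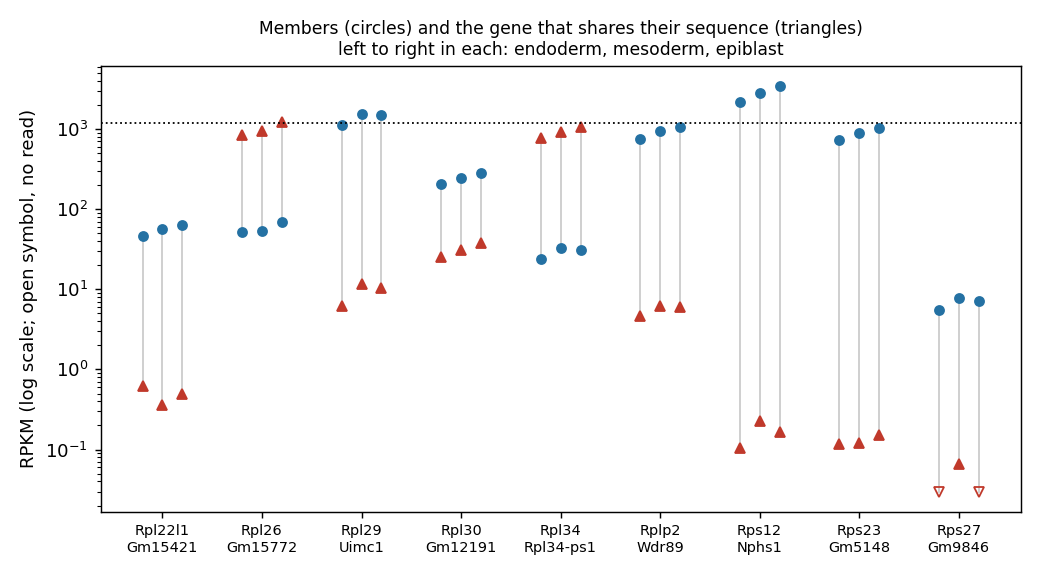
RPKM on a log axis of the 9 members with a listed gene that shares at least 30% of their windows (circles) and of that gene (triangles), in endoderm, mesoderm and epiblast from left to right; open symbols mark a copy with no read and the dotted line the median of the mean RPKM over the 80 members. Only for *Rpl26* and *Rpl34* does the triangle lie above the circle.

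Coverage, the percent of a gene's length covered by reads as deposited, gives a second view of how far unique reads reached over each gene. The median over all listed members was 97.9% in the endoderm and the mesoderm and 98.2% in the epiblast. Among the 80 members, 11 had under 90% in some library, among them *Rpl5*, *Rpl6*, *Rpl21*, *Rpl27*, *Rpl29*, *Rpl30*, *Rpl31*, *Rpl37*, *Rps9* and *Rps27*. *Rpl5*, which carries the 5S rRNA with *Rpl11*, was covered over 64.0%, 77.0% and 64.4% of its length in End, Mes and Epi while its level was 840, 975 and 1029 RPKM. *Rpl21* was covered over 65.7%, 85.8% and 92.3% and *Rps27* over 67.8%, 65.3% and 75.8%. *Rpl26* and *Rpl34*, although low, were covered over at least 94.0% and 93.8%. Across the 80 members the lowest coverage and the share of windows found in another gene had a rho of -0.06, given as a description over genes of unequal depth.

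The comparison of the endoderm with the other layers asks whether this group of genes differs in level between germ layers. Of the 80 members, 79 were lower in the endoderm than in the mesoderm, where 56.0% of all 8867 genes over RPKM 5 were higher in the mesoderm. The median log2 ratio of End over Mes was -0.32 for the members and -0.10 for all genes, which is a level 1.24-fold higher in the mesoderm for the median member. Against the epiblast 79 of the 80 were again lower in the endoderm, against a background of 54.0% of 8843 genes, with a median of -0.46 for the members and -0.08 for all genes (1.38-fold). Both comparisons share the endoderm library. With TMM factors 74 of the 80 were lower in the endoderm than in the mesoderm. The medians were then -0.20 for the members and 0.02 for all genes. Against the epiblast 79 stayed lower with TMM factors, with medians of -0.35 and 0.04.

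These differences were uniform and small. With the criteria used by the study (RPKM>5 in at least 1 library, fold over 2, FDR<0.001 from the Audic-Claverie exact test, which compares the reads of 2 libraries), 0 of the 80 members were called for End and Mes, where 23.0% of all genes were. For End and Epi 0 were called (24.6% of all genes), and for Mes and Epi 0 (10.3%). With a fold of 1.5 alone, 1 member was higher in the endoderm than in the mesoderm (all genes 21.8%) and 0 were higher in the mesoderm (18.2%). Between endoderm and epiblast 0 members were over 1.5-fold higher in the endoderm (24.3%) and 16 of 80 (20.0%) in the epiblast (20.1%), a share near that of all genes. This count depends on the scaling of the libraries, with 6 members when TMM factors were applied and 48 when the upper quartiles were made equal. The share of all genes under these scalings is not given. The standard deviation of the log2 ratio over the members was 0.17 for End over Mes and 0.16 for End over Epi, against 1.56 and 1.52 over all genes. Related lists described below were also narrow. It was 0.21 and 0.20 over ribosome biogenesis genes, 0.23 and 0.25 over other TOP genes and 0.33 and 0.34 over mitochondrial ribosomal protein genes.

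**Figure D3:**
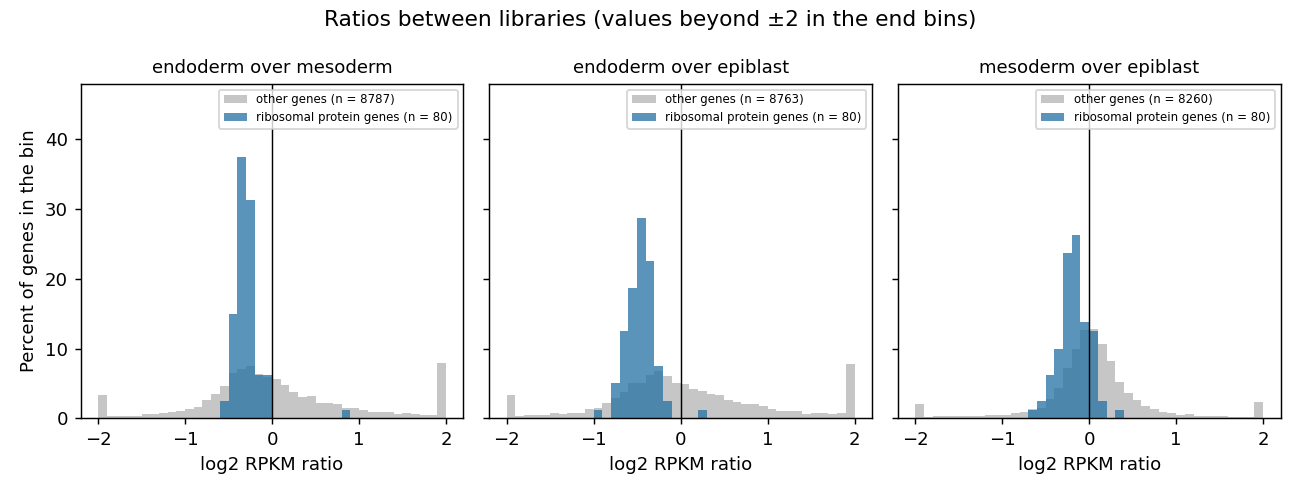
Percent of genes per bin of log2 RPKM ratio (0.1 wide) for the 80 ribosomal protein genes and all other genes over RPKM 5, in the 3 pairs of libraries. The ribosomal protein genes form a narrow peak left of 0, with medians of -0.32, -0.46 and -0.16, while the other genes spread widely around 0.

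Between mesoderm and epiblast the difference was smaller. Of the 80 members, 67 were higher in the epiblast, where 47.3% of all 8340 genes were, and the median log2 ratio of Mes over Epi was -0.16 for the members and 0.02 for all genes. Over 1.5-fold, 0 members were higher in the mesoderm (all genes 10.2%) and 1 was higher in the epiblast (8.59%). The order endoderm, mesoderm, epiblast from low to high was held by 66 of the 80 members (82.5%) and by 26.2% of all genes. Another 13 members were lowest in the endoderm and highest in the mesoderm, and they were *Rpl4*, *Rpl13*, *Rpl22*, *Rpl23a*, *Rpl24*, *Rpl29*, *Rpl34*, *Rpl35*, *Rps2*, *Rps6*, *Rps7*, *Rps25* and *Rps27*. Neighbours in these orders do not always differ beyond counting error, as *Rps6* had 1095 RPKM in the mesoderm and 1086 in the epiblast with a log2 interval of -0.00 to 0.03.

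The 16 members over 1.5-fold higher in the epiblast than in the endoderm were 7 genes of the small subunit (among them *Rps10*, *Rps12*, *Rps14*, *Rps15a*, *Rps20* and *Rps29*) and 9 of the large subunit (*Rpl7a*, *Rpl8*, *Rpl27*, *Rpl31*, *Rpl36*, *Rpl37a*, *Rpl41*, *Rplp0* and *Rplp1*). Their folds ran from 1.51 in *Rpl27* to 1.89 in *Rplp1*. *Rps14*, the small subunit gene lost in the 5q- syndrome of human bone marrow, had 913, 1118 and 1455 RPKM in End, Mes and Epi. *Rps10*, a protein near the mRNA entry, had 727, 966 and 1142 RPKM. *Rpl7a* had 1473, 1888 and 2251 RPKM and *Rpl36* 671, 818 and 1048. All 16 were lowest in the endoderm and highest in the epiblast. None of the 13 genes that were highest in the mesoderm could be among them. Such a gene would have to be over 1.5-fold higher in the mesoderm than in the endoderm, and 0 members were.

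The small and the large subunit genes had close median ratios in the endoderm comparisons and less close ones for Mes over Epi. The difference between the subunits was not tested. The median log2 ratio of End over Mes was -0.30 for the 32 small subunit genes and -0.32 for the 48 large subunit genes over RPKM 5. For End over Epi it was -0.47 and -0.46, and for Mes over Epi -0.22 and -0.15. The first value of each pair belongs to the small subunit, and in every comparison both lay on the same side of 0.

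Among the small subunit genes, *Rps4y2*, described further on, was farthest from the other members for End over Mes, and *Rps2*, a protein at the mRNA entry channel, was farthest in the other direction. It had 1920 RPKM in the endoderm, 2759 in the mesoderm and 2227 in the epiblast, the highest value being that of the mesoderm. Its log2 ratio was -0.52 (-0.54 to -0.51) for End over Mes and 0.31 (0.30 to 0.32) for Mes over Epi, the lowest and the highest of all members. *Rps2* has 71 annotated pseudogenes that share windows with it, the share of its windows found elsewhere being 79.0%. On the other side, *Rps20* had 1189, 1270 and 1841 RPKM and *Rps29* 811, 909 and 1314, so that for both the mesoderm lay nearer the endoderm than the epiblast. Their log2 ratios of Mes over Epi were -0.54 (-0.56 to -0.51) and -0.53 (-0.56 to -0.50). *Rps21* had 876, 920 and 1181 RPKM, the same pattern. *Rps6*, the substrate of the S6 kinases, had 791, 1095 and 1086 RPKM and a log2 ratio of End over Mes of -0.47 (-0.49 to -0.45). *Rps26* was likewise among the lowest in that comparison, at -0.46 (-0.48 to -0.44), and *Rps25*, a protein used in initiation at viral internal entry sites, was among the nearest to the epiblast, with 941, 1110 and 1090 RPKM.

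Among the large subunit genes, *Rplp0*, *Rplp1* and *Rplp2* encode the P stalk, which binds elongation factors, and the first and second of them stood at the low end of End over Epi. *Rplp1* had 939, 1285 and 1774 RPKM in End, Mes and Epi, with a log2 ratio of End over Epi of -0.92 (-0.94 to -0.89). This 1.89-fold difference was the largest of these 2 layers among the 80 members, and it passed the fold of 2 when the upper quartiles of the libraries were made equal. *Rplp0* had 1494, 2090 and 2451 RPKM, with log2 ratios of -0.48 (-0.50 to -0.47) for End over Mes and -0.71 (-0.73 to -0.70) for End over Epi. *Rplp2* had 746, 945 and 1072 RPKM and, at -0.52 (-0.55 to -0.49) for End over Epi, lay close to the member median. The intervals of the stalk genes do not overlap for End over Epi.

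Other large subunit genes at the low end of End over Epi were *Rpl8*, a protein near the peptidyl transferase centre, with 1172, 1472 and 1948 RPKM, *Rpl37a* with 488, 571 and 799, and *Rpl31* with 419, 542 and 681. Their log2 ratios of End over Epi were -0.73, -0.71 and -0.70. *Rpl23a*, at -0.14 (-0.16 to -0.13), and *Rpl22*, at -0.17 (-0.20 to -0.14), lay at the other end, and both were about as high in the mesoderm as in the epiblast or higher. *Rpl4*, a protein of the exit tunnel, had 1501, 2048 and 1921 RPKM and *Rps7* 785, 1009 and 942, with the mesoderm highest. In *Rpl38* and *Rpl39* the endoderm and the mesoderm hardly differed. *Rpl38*, whose loss causes the homeotic skeletal changes of the tail short mouse, had 1331, 1372 and 1861 RPKM, with a log2 ratio of -0.04 (-0.07 to -0.02) for End over Mes and -0.44 (-0.47 to -0.41) for Mes over Epi. *Rpl39* had 471, 472 and 645 RPKM, with -0.00 (-0.05 to 0.04) and -0.45 (-0.49 to -0.41). *Rpl26*, at -0.06 (-0.18 to 0.05) for End over Mes, rests on the fewer reads described above.

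At the deposited scaling, the 1 member of the 80 that was higher in the endoderm than in each other layer was *Rps4y2*. Its symbol is an older name of *Rps4l*, which GENCODE annotates as a transcribed processed pseudogene on chr6:148354656-148355598 (GRCm38, plus strand). It had 5502, 2901 and 4671 reads in End, Mes and Epi, or 140, 75.5 and 116 RPKM, with a coverage of at least 98.9%. It was thus highest in the endoderm and lowest in the mesoderm, where its functional relative *Rps4x* on the X chromosome had 934, 1255 and 1355 RPKM. The log2 ratio of End over Mes was 0.90 (0.83 to 0.96), a 1.86-fold difference, short of the fold of 2 in the criteria, which it passed when the libraries were rescaled by TMM factors or by the median of ratios. That of Mes over Epi was -0.62 (-0.69 to -0.56). It was the member over 1.5-fold in both of these comparisons, and 14.9% of its windows were found in another gene.

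The paralogs of ribosomal protein genes differed widely in level from their partners. *Rpl3l*, known from striated muscle, had 5, 4 and 17 reads in End, Mes and Epi where *Rpl3* had 1265, 1586 and 1779 RPKM. *Rpl10l*, known from the testis, had 10 reads in the endoderm and was not listed in the others, where no read is compatible with up to 3 reads by counting error. *Rpl39l*, also known from the male germ line, had 39, 10 and 20 reads. These 3 genes lay below RPKM 5 everywhere and were not compared. *Rpl22l1* and *Rpl7l1* lay below their partners and in the common order. *Rpl22l1* had 45.9, 57.1 and 62.8 RPKM against 219, 248 and 247 for *Rpl22*, and *Rpl7l1* 63.5, 78.1 and 83.7 against 1006, 1249 and 1440 for *Rpl7*. *Rpl36al*, outside the symbol rule, had 350, 338 and 439 RPKM against 845, 1101 and 1267 for *Rpl36a*, so that here the mesoderm was lowest.

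The 4 X-linked members, *Rpl10*, *Rpl36a*, *Rpl39* and *Rps4x*, had a median log2 ratio of -0.31 for End over Mes, -0.52 for End over Epi and -0.24 for Mes over Epi. All 4 were lowest in the endoderm and highest in the epiblast. *Rpl10* had 1029, 1208 and 1465 RPKM. The values for all members were -0.32, -0.46 and -0.16.

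Loss of 1 copy of certain ribosomal protein genes causes Diamond-Blackfan anaemia in humans. Of such genes, *Rps10*, *Rps19*, *Rps24*, *Rps26*, *Rpl5*, *Rpl11* and *Rpl35a* were lowest in the endoderm and highest in the epiblast, and *Rps7* was highest in the mesoderm. These genes are not a full list, and the first order was that of 82.5% of the 80 members and 26.2% of all genes. *Rps19*, the gene most often affected, had 484, 601 and 707 RPKM. *Rpl11*, which with *Rpl5* can bind the p53 regulator Mdm2, had 1207, 1437 and 1594 RPKM, and *Rpl24*, mutated in the belly spot and tail mouse, had 1022, 1351 and 1321. *Rps27a*, which is made as a fusion with ubiquitin, had 717, 779 and 912 RPKM.

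The ribosomal genes outside the symbol rule had similar ratios. *Rpsa*, the laminin receptor-like protein of the small subunit, had 845, 1026 and 1150 RPKM in End, Mes and Epi, *Rack1*, a scaffold protein of the small subunit, 962, 1263 and 1536, and *Fau*, a fusion with a ubiquitin-like protein, 551, 629 and 737. Each of these genes was lowest in the endoderm and highest in the epiblast.

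Other genes of the translation apparatus were set beside the members. Translation factors and other genes known for a TOP tract, among them the nucleolar chaperone gene *Npm1* and the RNA-binding protein gene *Hnrnpa1* (16 of 16 over RPKM 5), had a median log2 ratio of -0.33 for End over Mes and -0.44 for End over Epi, with 16 of 16 lower in the endoderm in both. For Mes over Epi their median was -0.05, nearer to 0 than that of the members. *Eef1a1*, the elongation factor that delivers aminoacyl-tRNA, had 5034, 5886 and 6906 RPKM in End, Mes and Epi, and *Pabpc1*, the poly(A) binding protein, 799, 1215 and 1264. In that list 1 gene, *Hnrnpa1*, met the criteria between endoderm and epiblast, with 85.2 and 177 RPKM. Of 61 ribosome biogenesis genes, 59 were lower in the endoderm than in the mesoderm and 59 lower than in the epiblast, with medians of -0.39 and -0.42 and of -0.05 for Mes over Epi. The 76 mitochondrial ribosomal protein genes, whose ribosomes translate the mitochondrial genome, had medians nearer to 0, of -0.09, -0.16 and -0.04. Other genes with a high level (RPKM over 100 in any library) had medians of -0.21, -0.28 and -0.05, with 63.4% lower in the endoderm than in the mesoderm and 64.8% lower than in the epiblast. Differences between these lists were not tested, and each is set against all genes at -0.10, -0.08 and 0.02.

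**Figure D4:**
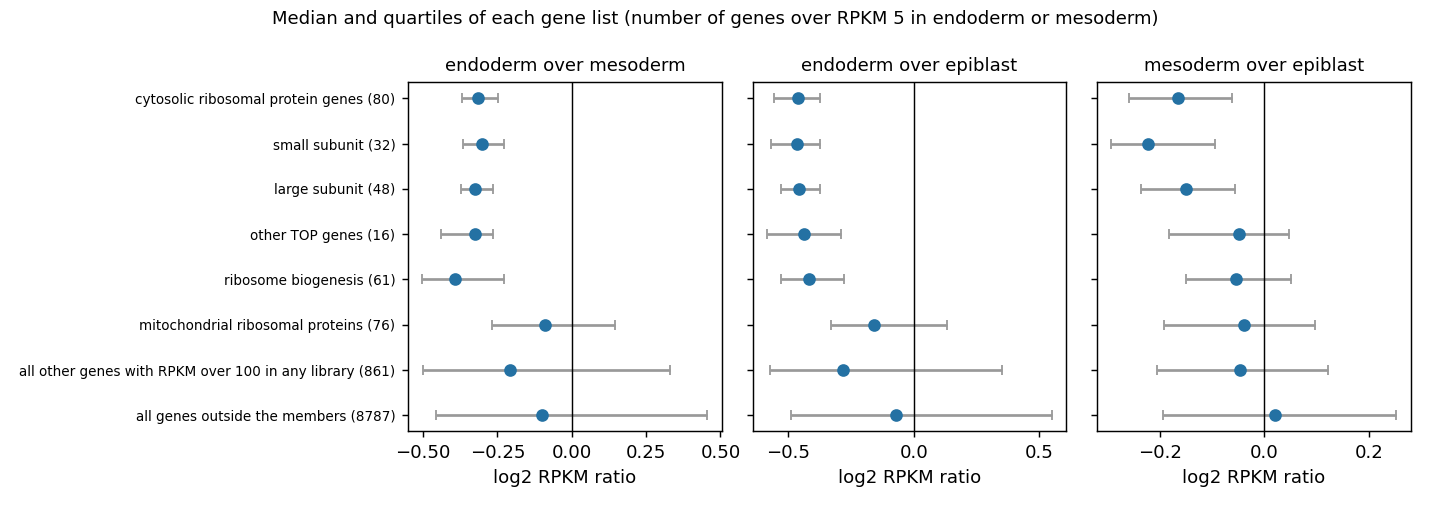
Median (points) and quartiles (bars) of the log2 RPKM ratio in each pair of libraries for the ribosomal protein genes, related gene lists and other genes, each with the number of genes over RPKM 5 in endoderm or mesoderm. The cytosolic ribosomal proteins (-0.32 and -0.46) lie with the other TOP genes and ribosome biogenesis genes left of 0 in both endoderm comparisons, and the mitochondrial ribosomal proteins lie nearer to 0.

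The difference between mesoderm and epiblast moved with gene length. The members are short, with a median length of 710 bases against 2672 for all listed genes. Over the 79 members without *Rps4y2*, length and the log2 ratio of Mes over Epi had a rho of 0.31, and over 8260 other genes 0.17, as a description of genes that share the same libraries. Among genes of at most 500 bases the median ratio was -0.21 for 16 members and -0.21 for 61 other genes. Among genes of 1000 to 6000 bases it was -0.11 for 18 members and 0.03 for 6836 other genes. At the shortest lengths the median thus lay below 0 for members and other genes alike. For End over Mes the members of at most 500 bases had a median of -0.32 and the other genes of that length 0.02, and for End over Epi -0.48 and -0.22. The part of fragment length or RNA quality in these values was not tested.

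**Figure D5:**
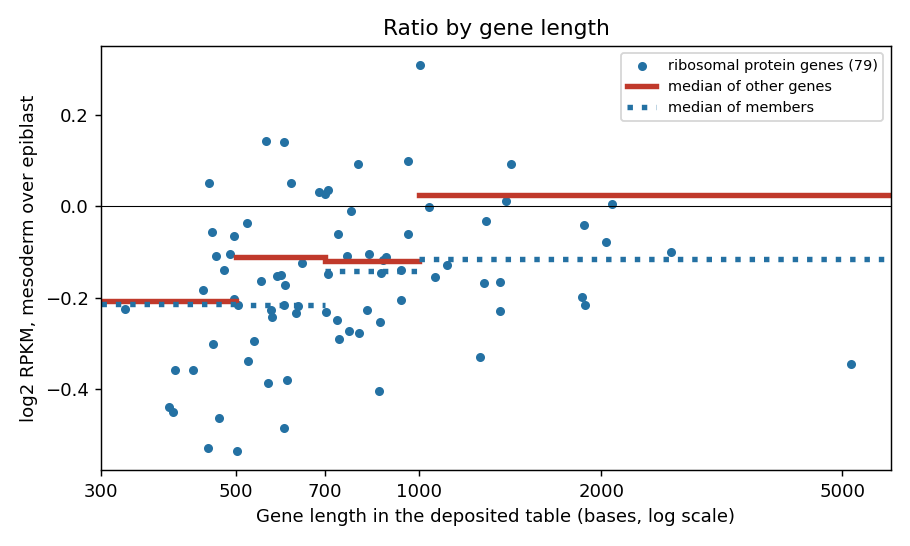
Log2 RPKM ratio of mesoderm over epiblast against gene length in bases (log axis) for 79 members (points), with the median of members (dotted) and of other genes (solid) in 4 bins of length. The medians of members and other genes are both -0.21 at the shortest lengths and separate to -0.11 and 0.03 above 1000 bases.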

How the data were processed

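The 3 germ layers of E7.5 ICR embryos were each sequenced as 1 paired-end library. For every gene the authors deposited a raw count of uniquely mapped reads, an RPKM, a length and a coverage in percent of the length. The deposited RPKM equals the count divided by length and by the library's counted reads (largest relative difference 2.03e-07). The submitters' processing notes name TopHat, mm9 and mm10 without saying which applies to the gene table, and its counting program and annotation are not given in the sources used here. Genes missing from a table were given 0 reads, with a limit of 3 reads by counting error.

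Ratios were taken from RPKM among genes over RPKM 5 in at least 1 library of the pair. Counts of each pair were compared with the Audic-Claverie exact test (two-sided) and the p-values adjusted by Benjamini-Hochberg over all genes with a read. Without replicate libraries no dispersion can be estimated, so the quasi-likelihood test of edgeR was not fitted. The test was checked on simulated data. Transcripts and positions were taken from GENCODE M21 (GRCm38), in which all 83 members were matched, *Rps3a* and *Rps4y2* through older symbols. Named genes were the 5 highest and lowest members, the 5 farthest from the member median in each direction in each pair, paralogs, P stalk, X-linked and Diamond-Blackfan genes, *Rpl38*, *Rpsa*, *Rps27a*, *Rpl24* and those with coverage under 90%. *Rpl36al* and the other TOP genes shown as examples were chosen after their values were seen. Values of some members and listed genes are not reported here. The members and lists were chosen with earlier results of these data known. Python 3.11.15, pandas 2.3.3, SciPy 1.17.1, R 4.3.3 and edgeR 4.0.16 were used.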

Additional observations from a re-analysis of the deposited data

How the results depend on the processing

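With 1 library per layer no replicate could be left out. No paired analysis was possible because each layer has a single library. In all 27 alternatives the median log2 ratio of the members stayed below 0. For End over Mes it was -0.32, and -0.28 with equal RPKM totals, -0.20 with the median of ratios, -0.38 with equal upper quartiles, -0.20 with TMM factors, -0.31 with a pseudocount of 1 RPKM, without the filter, with coverage of at least 90% and without members that have a listed copy, and -0.29 over members with under 50% of their windows shared. For End over Epi it was -0.46, and -0.37, -0.35, -0.60 and -0.35 under these 4 scalings. For Mes over Epi it was -0.16, and -0.11, -0.17, -0.23 and -0.17 under the 4 scalings, -0.17 without the filter and -0.20 over members with few shared windows. Equal upper quartiles moved the median of all genes from -0.08 to -0.23 for End over Epi. Of the 80 members, 79 were lower in the endoderm than in the mesoderm, and 78, 74, 79 and 74 under the 4 scalings. Against the epiblast 79 were lower in the endoderm under each scaling. Between mesoderm and epiblast 67 were higher in the epiblast, and 61, 67, 74 and 67 under the 4 scalings.

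The count of members over 1.5-fold apart for End and Mes was 2 in place of 1 with equal upper quartiles or without the filter. For End and Epi it was 6 in place of 16 with equal RPKM totals, the median of ratios or TMM factors, 48 with equal upper quartiles and 8 of 33 members with few shared windows. The share of all genes over 1.5-fold is not given for these scalings, so the rescaled counts cannot be set against it. For Mes and Epi it was 0 in place of 1 with equal RPKM totals and 3 with equal upper quartiles or without the filter. The criteria called 1 member in place of 0 for End and Mes with the median of ratios or TMM factors (*Rps4y2*) or without the filter (*Rpl39l*, on 39 and 10 reads), and 1 for End and Epi with equal upper quartiles (*Rplp1*). A threshold of 25% in place of a fold of 2 gave 38, 68 and 15 members, and 5605, 5914 and 2967 of all genes against 2038, 2176 and 861. With edgeR's exact test and an assumed coefficient of variation of 0.2, the criteria called 0 members in each pair and 1199, 1235 and 443 of all genes. The fold over 2 was kept, and none of the 80 members passed it at the deposited scaling. The count of members was thus fixed whatever that test gave. The members' share of reads moved from 6.28%, 7.88% and 8.64% to 17.5%, 21.3% and 22.7% of summed RPKM and to 2.60%, 3.09% and 3.57% without the 100 genes with the most reads, with the same order of layers. The subsets by listed copies and by shared windows were chosen after seeing the data. A subset by uniqueness in the whole genome was not run. Depth limits *Rpl3l*, *Rpl10l* and *Rpl39l*, with at most 39 reads, and the cause of the changes was not tested.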
